A study of Homo sapiens with 12 samples.

Results

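AP-1 and immediate early genes were examined in C4-2, a subline of the LNCaP prostate cancer cells of human origin, after knockdown of choline kinase alpha (CHKA), the first enzyme of the Kennedy pathway of phosphatidylcholine synthesis. The 10 genes were taken by name: the FOS family (FOS, FOSB, FOSL1 and FOSL2), the JUN family (JUN, JUNB and JUND), EGR1, IER2 and IER3. All 10 were found by Ensembl identifier among the 54127 identifiers of the count files. Cells in RPMI with serum were reverse transfected with 50 nM of an siRNA pool against CHKA (siCHKA, 6 samples) or of nontargeting siRNA (siNT, 6 samples), and messenger RNA was sequenced with single-end reads. No other condition differed by the labels, and no second siRNA pool against CHKA was sequenced, so loss of CHKA and other effects of the pool cannot be told apart. The time between transfection and harvest was not given in the sources used here. The labels describe RNA from flow sorted cells and the study's methods for the sequencing do not mention a sort, so how the cells were handled before lysis is uncertain.

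AP-1 is a family of transcription factor dimers that bind DNA through a basic leucine zipper. JUN proteins pair with each other or with FOS proteins, whereas FOS proteins need a JUN partner. Many of these genes belong to the immediate early class, which serum, growth factors and stress switch on within minutes through MAP kinases and without new protein synthesis. FOS and EGR1 transcripts are made in short bursts and decay fast, while JUND is expressed steadily in many resting cells.

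Of the promoter windows 4 are printed: those of JUN, which rose, and of JUND, which fell, that of FOSL2, the FOS family gene that was well expressed, and that of EGR1, which was near the limit of detection. Each runs from 250 bases before the start of the RefSeq gene to 50 bases after it, on GRCh38.p14, 5′ to 3′ along the gene. Capitals mark a TGANTCA (AP-1 site), TGACGTCA (cyclic AMP response element), TGACATCA (a variant of both) or CArG box, the site of serum response factor. Motifs were searched on both strands and the 4 patterns do not overlap here.
JUN promoter (chr1:58783998-58784297, minus strand): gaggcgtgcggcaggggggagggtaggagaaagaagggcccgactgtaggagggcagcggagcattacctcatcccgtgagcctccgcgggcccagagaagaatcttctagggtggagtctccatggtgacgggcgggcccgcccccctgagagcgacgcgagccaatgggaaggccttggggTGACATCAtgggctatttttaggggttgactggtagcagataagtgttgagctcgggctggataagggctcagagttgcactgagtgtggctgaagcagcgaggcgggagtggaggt
JUND promoter (chr19:18281573-18281872, minus strand): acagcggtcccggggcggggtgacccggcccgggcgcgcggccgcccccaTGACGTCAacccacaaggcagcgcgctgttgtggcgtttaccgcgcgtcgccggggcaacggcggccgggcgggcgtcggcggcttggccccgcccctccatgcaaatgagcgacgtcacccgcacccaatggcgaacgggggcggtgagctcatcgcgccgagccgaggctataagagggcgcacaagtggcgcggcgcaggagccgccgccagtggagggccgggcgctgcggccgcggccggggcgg
FOSL2 promoter (chr2:28392608-28392907, plus strand): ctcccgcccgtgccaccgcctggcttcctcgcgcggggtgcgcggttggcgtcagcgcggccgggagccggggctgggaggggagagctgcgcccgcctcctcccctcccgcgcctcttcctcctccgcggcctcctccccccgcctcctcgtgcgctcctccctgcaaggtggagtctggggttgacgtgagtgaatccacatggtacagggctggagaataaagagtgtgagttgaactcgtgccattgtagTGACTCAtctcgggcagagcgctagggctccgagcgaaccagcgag
EGR1 promoter (chr5:138465229-138465528, plus strand): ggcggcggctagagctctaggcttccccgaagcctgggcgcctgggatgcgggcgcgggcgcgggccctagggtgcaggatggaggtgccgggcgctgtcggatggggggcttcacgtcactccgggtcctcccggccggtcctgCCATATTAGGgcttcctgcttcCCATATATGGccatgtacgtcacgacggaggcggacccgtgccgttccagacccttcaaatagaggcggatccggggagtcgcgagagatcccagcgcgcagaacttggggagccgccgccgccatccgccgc
The JUN window holds TGACATCA from base -67 to -60 relative to the start, a match carried by 2.61% of all 35116 RefSeq promoter windows of the same length. JUND holds TGACGTCA from base -200 to -193 (1.85% of windows), FOSL2 holds TGANTCA from base 5 to 11 (7.71% of windows) and EGR1 holds 2 CArG boxes, from base -105 to -96 and from -83 to -74 (1.29% of windows hold at least 1). These are matches of letters and not measured binding sites. The FOSL2 window begins at base 28392608, inside the gene as annotated by GENCODE, which begins at 28392448. The FOSL2 positions are therefore relative to a later start. Windows were found for 8 of the 10 genes, not for FOSL1 and IER3. Besides these 4 genes none of the 8 held any of the 4 patterns in its window, while the GC box GGGCGG was found in 6 of the 8, against 45.0% of all windows. Sites more than 250 bases before the start were not searched, so a gene such as FOS may hold these patterns further out. The 8 windows were also richer in G and C, at 62.0% to 77.0%, than the median of all windows, at 58.7%.

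The data were deep enough for most of the genes. Reads counted on genes ranged from 10685184 to 24246055 per sample, so 3 reads corresponded to 0.128 to 0.292 CPM (counts scaled to library size after TMM normalization, as used for all levels here) at counting error alone. The targeted CHKA transcript was between 1.91 and 4.67 CPM in the siCHKA samples and between 36.7 and 43.3 CPM in the siNT samples. All 10 luminal prostate markers fixed for the check, KLK3 among them, were expressed, with a summed level of 4654 to 5814 CPM after siCHKA and 5673 to 7174 CPM after siNT (7 genes lower, 3 higher). Of the markers of other cell types, 12 were matched, and their sum was 43.1 to 51.9 CPM after siCHKA and 33.7 to 37.8 CPM after siNT, of which COL1A1 and VIM were the most abundant, and 4 of the 6 tested were higher and 1 lower; CD3E had no read in any sample, and PTPRC, KRT5 and TP63 were below 0.2 CPM on average in both groups. Their part in the results was not tested. Higher and lower here mean an adjusted p-value below 0.05 in edgeR's quasi-likelihood test. Of all tested genes, 32.1% were higher and 30.1% lower in this way. In read counts over all genes, siCHKA replicates 1, 3 and 5 were closer to each other than to replicates 2, 4 and 6 (chi-square per degree of freedom 2.44 to 9.46 within these sets and 12.8 to 25.2 across them). The siNT libraries also varied, from 2.45 to 30.4. The fold changes of the members that passed the test are therefore also given with either set of siCHKA samples alone. The labels do not give these sets, which were seen in the same counts. A p-value with 1 set alone leaves out the spread between the sets and is given as description only. The labels do not say whether samples of a group came from separate cultures, and the study's captions speak of biological triplicate experiments in one place and of a biological replicate for each sample in another. How many samples of a group are independent is therefore uncertain, and the p-values measure the spread between these samples.

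After CHKA knockdown the JUN family changed in opposite directions: JUN and JUNB rose and JUND fell. FOSL2, the FOS family gene with the highest level, and IER2 rose as well, and IER3 rose slightly. FOS and EGR1 stayed near the limit of detection in both groups. Of the 10 genes, 8 passed the expression filter, and of these 5 were higher and 1 was lower at an adjusted p-value below 0.05 in edgeR's quasi-likelihood test. Knockdown altered much of the transcriptome, with 62.2% of the 14501 tested genes past this threshold, 32.1% higher and 30.1% lower, so changed genes are common and the shares for 8 genes have little weight. The median log2 fold change of the 8 was 0.34, against 0.03 over all tested genes.

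**Figure D1:**
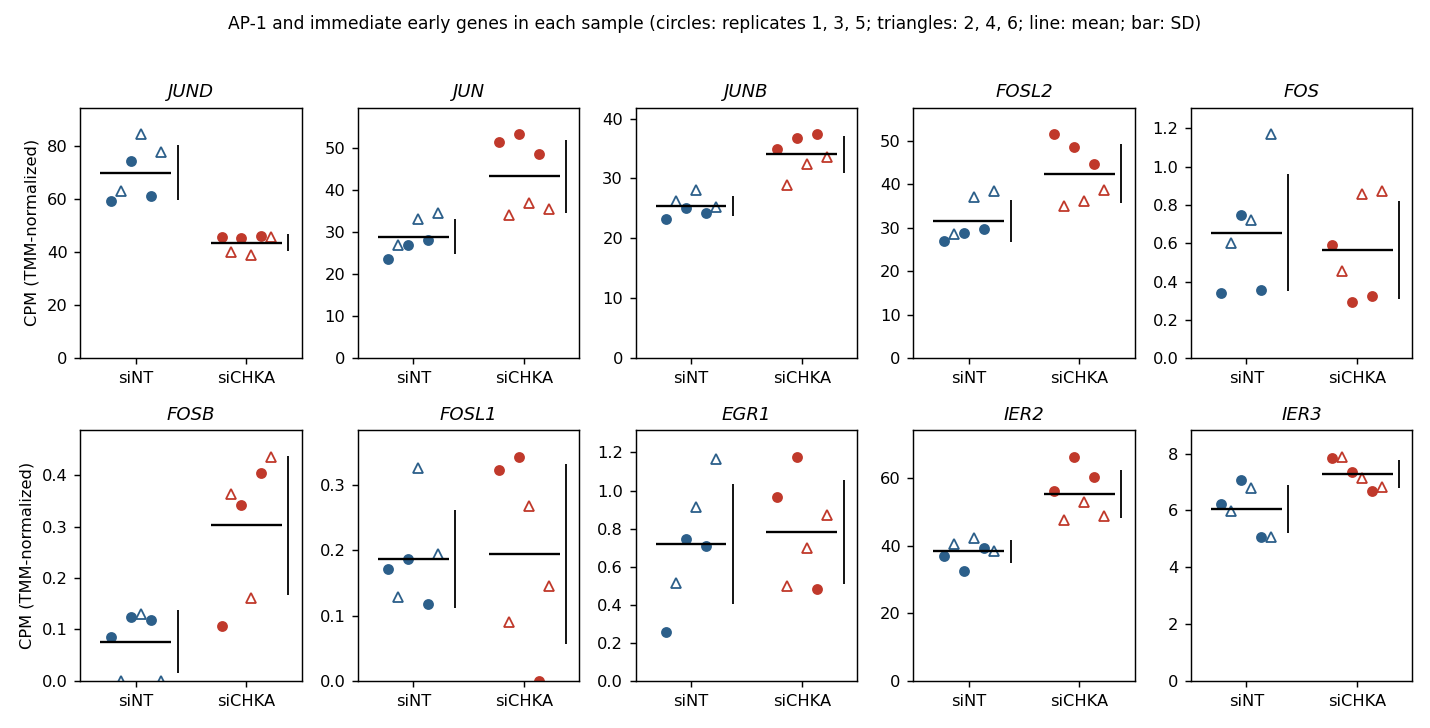
CPM (TMM-normalized; linear axes from 0) of the 10 genes in each of the 12 samples; circles are replicates 1, 3 and 5, triangles replicates 2, 4 and 6, the horizontal line is the group mean and the vertical bar the SD (n = 6). JUNB and IER2 are higher and JUND is lower in every siCHKA sample than in any siNT sample, whereas FOS, FOSL1 and EGR1 overlap widely.

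JUN (ENSG00000177606; chromosome 1, minus strand, 58776845 to 58784048, GRCh38) is the founding AP-1 subunit and a strong activator. The siCHKA samples had 34.1 CPM at the lowest, 42.6 at the median and 53.2 at the highest, and the siNT samples had 23.6, 27.5 and 34.5 CPM. The groups met at their edges, with siCHKA replicate 2 just below siNT replicate 6. JUN averaged 43.2 ± 8.72 CPM in siCHKA samples and 28.9 ± 4.11 CPM in siNT samples (SD, n = 6). JUN thus rose by 49.9%, a log2 fold change of 0.58 with a standard error of 0.12 (edgeR's quasi-likelihood test, adjusted p = 0.00048). A two-sided exact permutation test on log2 CPM gave p = 0.00433. Of all tested genes, those that fell included, 86.3% had a lower log2 fold change. The rise of JUN was unevenly spread, since replicates 1, 3 and 5 had 48.5 to 53.2 CPM and replicates 2, 4 and 6 had 34.1 to 36.8 CPM. Against all siNT samples the log2 fold change was 0.83 with the first set alone (edgeR's test, adjusted p = 7.87e-07) and 0.29 with the second alone (adjusted p = 0.0127). The smaller p-value of the first set is not stronger evidence than that of all 6 samples, since the spread between the sets is left out.

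JUNB (ENSG00000171223; chromosome 19, plus strand, 12791486 to 12793315) competes with JUN for partners and is the weaker activator at many sites. It ranged from 28.9 to 37.4 CPM with a median of 34.3 after siCHKA and from 23.2 to 28.1 CPM with a median of 25.2 after siNT. The ranges did not overlap. JUNB rose by 33.5%, or 0.42 on the log2 scale with a standard error of 0.07 (edgeR's quasi-likelihood test, adjusted p = 4.59e-05; exact permutation test, two-sided, p = 0.00216, the smallest that 6 samples against 6 allow). With replicates 1, 3 and 5 alone it was 0.52 and with replicates 2, 4 and 6 alone 0.31, both past the threshold. JUNB overlaps HOOK2, on the opposite strand, and the strand setting of the counting is not given in the sources used here. HOOK2 had a log2 fold change of 0.19 that did not pass the test (adjusted p = 0.0806).

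JUND (ENSG00000130522; chromosome 19, minus strand, 18279694 to 18281622) is the steadily expressed subunit that slows the growth of many cultured cells. It was between 38.8 and 45.9 CPM with a median of 45.4 after siCHKA and between 59.0 and 84.2 CPM with a median of 68.6 after siNT. All siCHKA samples were below all siNT samples, and the siCHKA samples varied little, with an SD of 3.26 CPM against 10.3 CPM after siNT. JUND fell by 0.68 on the log2 scale, with a standard error of 0.08 (edgeR's quasi-likelihood test, adjusted p = 2.28e-06), which is a fall to 0.623 times its siNT level (exact permutation test, two-sided, p = 0.00216). Only 9.15% of tested genes had a lower log2 fold change. The fall was 0.61 (standard error 0.10) with replicates 1, 3 and 5 alone and 0.76 (standard error 0.11) with replicates 2, 4 and 6 alone. Unlike for JUN, the 2 sets overlapped. Replicate 6, at 45.4 CPM, lay within the 45.3 to 45.9 CPM of the first set.

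FOSL2 (ENSG00000075426; chromosome 2, plus strand, 28392448 to 28417317) encodes the FOS-related antigen FRA2. The siCHKA samples had 35.1, 41.6 and 51.4 CPM at the lowest, median and highest, and the siNT samples 26.9, 29.3 and 38.5 CPM. The ranges overlapped, because siNT replicates 4 and 6, the upper siNT samples, were above the lowest siCHKA samples. FOSL2 rose by 0.43 on the log2 scale with a standard error of 0.11 (edgeR's quasi-likelihood test, adjusted p = 0.00244; exact permutation test, two-sided, p = 0.0173). It was 0.62 with replicates 1, 3 and 5 alone, and with replicates 2, 4 and 6 alone it was 0.21 and no longer past the threshold (adjusted p = 0.0734). The antisense gene FOSL2-AS1 also rose, by 1.40 on the log2 scale, from 0.322 ± 0.144 to 0.814 ± 0.146 CPM (SD, n = 6). Whether reads of either gene were counted for the other was not tested.

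The other FOS family genes were barely expressed. FOS (ENSG00000170345; chromosome 14, plus strand, 75278826 to 75282230), the prototype immediate early gene, had 4 to 18 reads per siCHKA sample with a median of 10.5 and 4 to 14 reads per siNT sample with a median of 11.5. Its log2 fold change was -0.14 with a 95% confidence interval from -0.83 to 0.56 (edgeR's quasi-likelihood test, adjusted p = 0.735), an interval wide enough to hold changes of the size seen for JUNB or JUND. FOSL1 (ENSG00000175592; chromosome 11, minus strand, 65892049 to 65900573), which encodes FRA1, had 0 to 7 reads per siCHKA sample and 2 to 5 per siNT sample and was not tested. FOSB (ENSG00000125740; chromosome 19, plus strand, 45467995 to 45475179) had 2, 8, 7, 3, 5 and 9 reads in siCHKA replicates 1 to 6 and 1, 0, 2, 2, 2 and 0 reads in siNT replicates 1 to 6, in all 34 against 7 reads. It did not pass the filter, and a fit without the filter gave 1.88 on the log2 scale with a standard error of 0.56 (edgeR, adjusted p = 0.00705). Each siNT sample was below the 3 reads taken as the floor, and FOSB overlaps ERCC1 on the opposite strand, which rose by 0.33 on the log2 scale (adjusted p = 0.000104 from edgeR's test).

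The immediate early genes outside AP-1 split in the same manner between detected and nearly silent. EGR1 (ENSG00000120738; chromosome 5, plus strand, 138465479 to 138469303), a zinc finger factor induced with FOS, had 6 to 24 reads per siCHKA sample and 3 to 14 per siNT sample, or 0.783 ± 0.273 and 0.717 ± 0.315 CPM (SD, n = 6). Its log2 fold change was 0.19 (95% confidence interval -0.43 to 0.80, edgeR's quasi-likelihood test, adjusted p = 0.596). IER2 (ENSG00000160888; chromosome 19, plus strand, 13150411 to 13154911), a nuclear protein induced by growth factors, was at 47.6, 54.6 and 66.2 CPM at the lowest, median and highest after siCHKA and at 32.4, 38.9 and 42.2 CPM after siNT. The ranges did not overlap, and IER2 rose by 0.53 on the log2 scale with a standard error of 0.08 (edgeR's test, adjusted p = 2.83e-05; exact permutation test, two-sided, p = 0.00216). The value was 0.67 with replicates 1, 3 and 5 alone and 0.37 with replicates 2, 4 and 6 alone.

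IER3 (ENSG00000137331; chromosome 6, minus strand, 30743199 to 30744548), a survival factor induced by stress and NF-kappa B, ranged from 6.70 to 7.87 CPM with a median of 7.24 after siCHKA and from 5.06 to 7.08 CPM with a median of 6.11 after siNT. The lowest siCHKA sample, at 6.70 CPM, lay below the 2 highest siNT samples, at 6.80 and 7.08 CPM. The rise was 0.27 on the log2 scale with a standard error of 0.10 (edgeR's quasi-likelihood test, adjusted p = 0.0238; exact permutation test, two-sided, p = 0.0130). This call was the weakest of the 6, and it was lost without siCHKA replicate 2 (adjusted p = 0.0523), without siNT replicate 5 (0.0684) or without siNT replicate 6 (0.0565), and with either set of siCHKA samples alone (0.0629 and 0.0702). IER3 lies in the major histocompatibility complex, for which the reference genome has alternative sequences. Whether the authors aligned to these, and whether IER3 lost reads to them, was not tested.

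Of the 8 tested genes, 2 were higher and 1 was lower without overlap between the groups, whereas among all tested genes 19.1% were higher and 21.5% lower in this way, 40.6% in all.

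**Figure D2:**
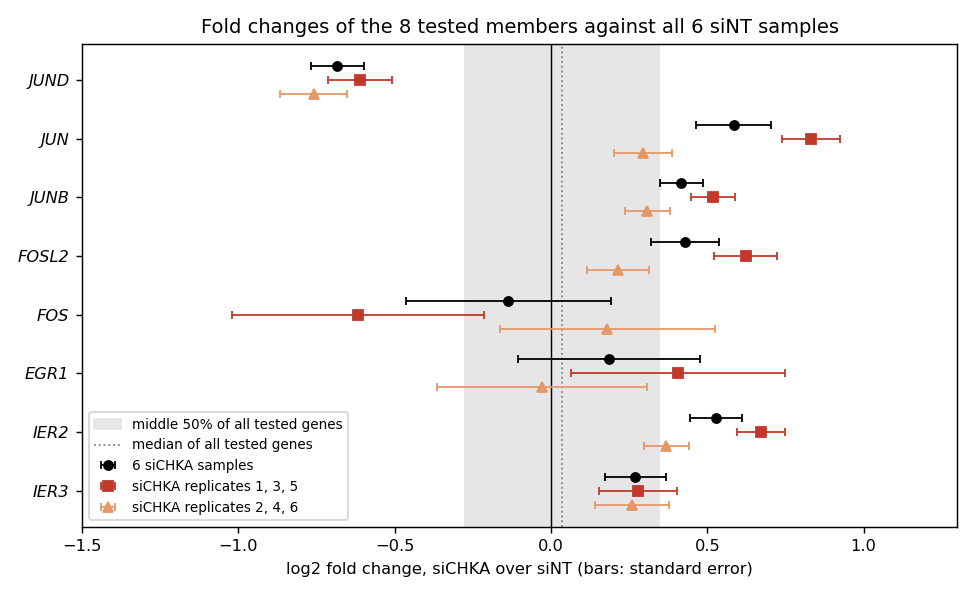
Log2 fold changes of siCHKA over all 6 siNT samples for the 8 tested genes, with all 6 siCHKA samples (black circles), replicates 1, 3 and 5 (red squares) and replicates 2, 4 and 6 (orange triangles); bars are standard errors, the grey band spans the middle 50% of all tested genes, from -0.27 to 0.34, and the dotted line is their median. JUND lies at -0.68 with 6 samples, and JUN moves from 0.83 to 0.29 between the 2 sets of siCHKA samples.

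Levels between genes were compared per kb of exon (CPM per kb). After siNT the order was JUND at 36.2 ± 5.34, JUNB at 13.9 ± 0.919, IER2 at 12.4 ± 1.10, JUN at 7.96 ± 1.13, IER3 at 4.47 ± 0.629 and FOSL2 at 4.41 ± 0.678 CPM per kb (SD, n = 6). JUNB and IER2 differed by about their spread, and IER3 and FOSL2 by less. EGR1 and FOS followed far below, at 0.229 ± 0.101 and 0.205 ± 0.0960 CPM per kb, with FOSL1 at 0.0993 and FOSB at 0.0137 CPM per kb. After siCHKA JUND still led, at 22.5 ± 1.69 CPM per kb, but JUNB at 18.6 ± 1.70 and IER2 at 18.0 ± 2.31 CPM per kb had moved close to it, and JUN was at 11.9 ± 2.41 CPM per kb.

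The summed level of the 7 FOS and JUN family transcripts was similar in both groups, at 59.3 ± 6.20 CPM per kb (SD, n = 6) after siCHKA and 62.8 ± 7.70 CPM per kb (SD, n = 6) after siNT, while its makeup differed. JUND made up 55.5% to 60.2% of the sum in the siNT samples and 35.9% to 41.0% in the siCHKA samples. JUN made up 11.6% to 13.7% after siNT and 17.0% to 22.4% after siCHKA, and JUNB 19.9% to 24.5% and 29.6% to 33.1%. FOSL2 made up 6.28% to 7.74% after siNT and 9.36% to 11.1% after siCHKA, and FOS, FOSB and FOSL1 were each below 1% in every sample. The ratio of JUN to JUND, per kb, was 0.221 ± 0.0193 (SD, n = 6) after siNT and 0.527 ± 0.0828 (SD, n = 6) after siCHKA. These shares restate the levels above and were not tested. They concern transcripts, not the amount or activity of the proteins.

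**Figure D3:**
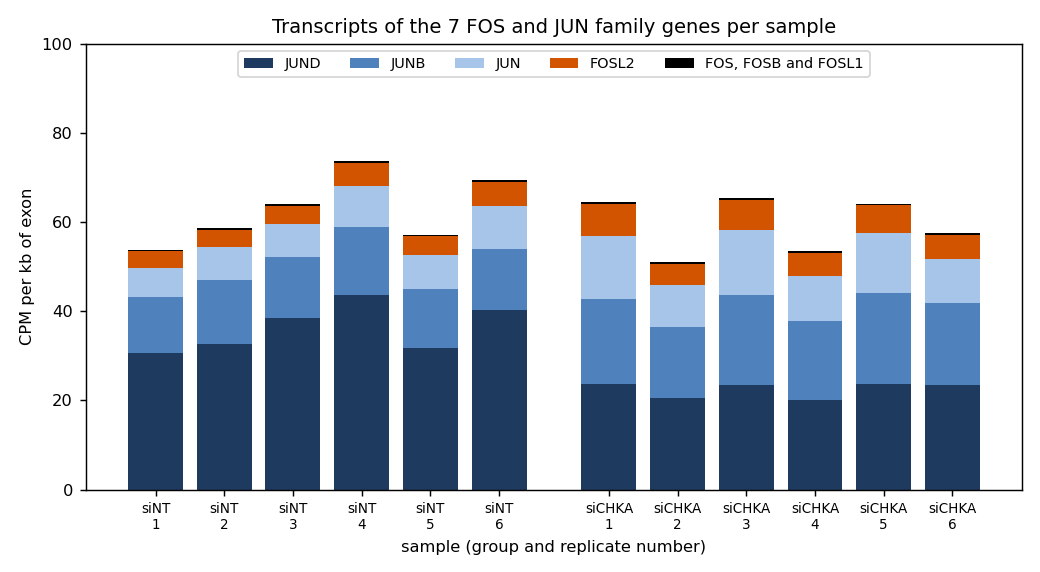
Stacked CPM per kb of exon of the FOS and JUN family genes in each sample (bars from 0), with FOS, FOSB and FOSL1 together in black at the top. The JUND segment is shorter in each siCHKA sample, and the whole bars reach 51.0 to 65.4 CPM per kb after siCHKA and 53.8 to 73.7 after siNT.

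To place these genes among their partners and regulators, lists of further genes were examined with the same fit, and their counts are to be read against the 32.1% of all tested genes that were higher and the 30.1% that were lower. Of 14 other basic leucine zipper genes whose proteins can pair with FOS or JUN or bind related sites, 11 were tested, 6 of them higher (54.5%, against 32.1% of all tested genes) and 4 lower (36.4%, against 30.1%). With siCHKA replicates 1, 3 and 5 alone 4 were higher. NRL, MAF and MAFK, all of the MAF family, rose by 1.36, 0.93 and 0.22 on the log2 scale. The CRE-binding factors ATF7 and ATF2 fell by 0.70 and 0.20, BATF3 fell by 0.67, and JDP2, a repressor that pairs with JUN, fell by 0.54. The median of the tested partners was 0.22.

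Of 36 other immediate early genes, 30 were tested, of which 15 were higher (50%, against 32.1% of all tested genes), 6 lower (20%, against 30.1%) and 9 not past the threshold, with a median log2 fold change of 0.19. IER5L rose by 1.60, DUSP1, a phosphatase of MAP kinases, by 0.86, the histone demethylase gene KDM6B by 0.53 and ZFP36L1, whose protein promotes decay of AU-rich messages, by 0.49. IER5L was low in level, at 1.40 CPM after siNT and 4.36 CPM after siCHKA on average. The orphan nuclear receptor gene NR4A1 fell by 0.66, the synaptic gene ARC by 0.67, MYC by 0.52 and ZFP36L2 by 0.33. EGR2, EGR3, EGR4, NR4A2, NR4A3 and CCN2 were among the 6 not tested, none above 0.415 CPM on average over all samples.

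Among the regulators the changes ran in both directions. Of 10 transcription factors that act on immediate early promoters, 3 were higher and 4 lower (30% and 40%): ELK3, STAT3 and SRF rose by 0.91, 0.59 and 0.25, and CREM, MRTFA, ATF1 and ELK1 fell by 0.44, 0.33, 0.29 and 0.28. Of 26 tested kinases of the MAP kinase pathways, 6 were higher (23.1%, against 32.1% of all tested genes) and 11 lower (42.3%, against 30.1%), with a median of -0.09. RPS6KA3, which encodes the ERK-activated kinase RSK2, fell by 1.27, from 160.3 ± 15.5 to 66.6 ± 6.95 CPM (SD, n = 6), RPS6KA4 (MSK2) by 0.69, MAPK9 (JNK2) by 0.58 and MAP2K5 by 0.49. MAPK11, MAP2K6, MAP2K2 and MAPKAPK3 rose by 0.66, 0.61, 0.46 and 0.32. With siCHKA replicates 1, 3 and 5 alone, 10 kinases were higher and 9 lower, and with replicates 2, 4 and 6 alone 6 and 13.

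Of 30 genes known as AP-1 targets in other cells, 18 were not tested, and MMP1, MMP3, IL6 and AREG among them had no read in any sample. Of the 12 tested, 3 were higher (25%, against 32.1% of all tested genes) and 6 lower (50%, against 30.1%), with a median of -0.19. MMP13, HMOX1 and the cyclin gene CCND1 rose by 1.10, 0.94 and 0.55, and ODC1, MT2A, GCLC and HBEGF fell by 1.53, 0.92, 0.61 and 0.45. MMP13 was low in level, at 1.02 CPM after siNT and 2.21 CPM after siCHKA on average. CCND1 averaged 502 ± 63.5 CPM in siCHKA samples and 344 ± 30.9 CPM in siNT samples (SD, n = 6). Of 12 heat shock genes, a class that stress also induces, 9 were lower (75%, against 30.1% of all tested genes) and 0 higher, the latter also at an unadjusted p-value below 0.05 in edgeR and in DESeq2. With siCHKA replicates 1, 3 and 5 alone 7 were lower, and with replicates 2, 4 and 6 alone 11. BAG3, HSPB1, HSP90AB1 and HSPA8 fell by 0.96, 0.62, 0.59 and 0.52.

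The genes whose 12-sample profile was most like that of JUN, by the mean absolute difference of centred log2 CPM among 9628 genes with at least 10 CPM, were TP53INP2 (0.0776), RAB11FIP4 (0.0783) and SUFU (0.0832), against a median difference of 0.346. For FOS they were MT1X, NUPR1 and DHRS3 (0.285 to 0.325) and for EGR1 SLC18A2, FAM117B and MKNK2 (0.288 to 0.310), profiles that rest on few reads of FOS and EGR1.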

How the data were processed

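RNA of 12 C4-2 samples, 6 siCHKA and 6 siNT by the sample labels, was sequenced as single-end reads from TruSeq libraries. The authors aligned reads to GRCh37 with TopHat2 2.0.4 and deposited HTSeq 0.5.3p9 counts per Ensembl gene without normalization, in 4 files per sample. Reads with several alignments or on overlapping genes were left out there, and the 5 summary rows, 33.9% to 39.0% of all rows' reads per sample, were left out here.

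The 4 files of a sample were summed. Identifiers were paired with symbols, GRCh38 coordinates and exon lengths through GENCODE 44, which held 82.8% of them. In R 4.3.3, genes passing filterByExpr were scaled by TMM and siCHKA was compared with siNT by edgeR's quasi-likelihood test (4.0.16), no covariate being used; p-values were Benjamini-Hochberg adjusted over all 14501 tested genes at a threshold of 0.05. Log2 CPM used a prior count of 2, and CPM per kb used the union of GENCODE exons, which may differ from the exons counted. The TMM factors were 1.02 to 1.07 in the siCHKA samples and 0.922 to 0.965 in the siNT samples, and no fit without such factors was run. Standard errors were the fold change divided by the root of F. Exact permutation tests used all 924 splits. The fit was tested on simulated counts drawn independently for each sample. These held no sets like those seen among the siCHKA samples, so they do not show how the fit performs with such sets.

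The genes named are the 10 members, CHKA, at most 4 genes per list and direction with the smallest p-value, and the 3 genes nearest to FOS, JUN and EGR1; genes named as not tested, overlapping or nearly unexpressed were chosen after their values were seen. Some genes that this rule names are not reported here. Members and lists were chosen with earlier results of these data known. PECAM1 had no matching identifier. Same-numbered samples were checked for pairing: the correlations of their deviations from the group means ran from -0.396 to 0.321, so they were not treated as pairs. Alternatives were RLE normalization, DESeq2 1.42.0, omitting the filter, a minimum of 10 counts per sample, the replicate block, each library left out, either set of 3 siCHKA samples, and 1 count file per sample. Promoter sequences are from RefSeq (GRCh38.p14).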

Additional observations from a re-analysis of the deposited data

How the results depend on the processing

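JUN, JUNB, JUND and IER2 stayed past the threshold in the same direction under each of 20 alternatives, over which the log2 fold change of JUN ran from 0.29 to 0.83, JUNB from 0.31 to 0.52, JUND from -0.76 to -0.61 and IER2 from 0.37 to 0.67. FOSL2 was not past the threshold with siCHKA replicates 2, 4 and 6 only (0.21). The log2 fold change of IER3 was not past it without a filter (0.24), with siCHKA replicates 1, 3 and 5 only (0.28), with replicates 2, 4 and 6 only (0.26) or with 1 count file per sample (0.17), and with single libraries left out ran from 0.22 to 0.31. FOS and EGR1, never past the threshold, could not be fitted with 1 count file or a minimum of 10 counts. FOS turned to 0.18 with siCHKA replicates 2, 4 and 6 only, 0.0073 without siCHKA replicate 3 and 0.030 without siNT replicate 6, and ran from -0.31 to 0.030 over the single libraries left out. EGR1 turned to -0.029 with siCHKA replicates 2, 4 and 6 only. Members that were higher numbered 3 with those replicates, instead of 5. With 1 count file 2 AP-1 partners were lower instead of 4, of 9 tested, and with siCHKA replicates 1, 3 and 5 only 10 kinases were higher instead of 6. The causes were not tested. The replicate block changed no call among the members (JUN 0.57, JUNB 0.41, JUND -0.68, FOSL2 0.42, IER2 0.52, IER3 0.27) and gave 4273 lower and 4494 higher genes. Same-numbered samples did not deviate together. With a prior count of 0.5 the permutation tests kept their side of 0.05. Depth limits FOS, FOSB, FOSL1 and EGR1.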
